A study of Homo sapiens with 6 samples.

Results

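SNORD116-2, SNORD116-10, SNORD116-20 and SNORD116-21 are 4 copies of one box C/D small nucleolar RNA family, and they were followed here in nascent RNA of A375 cells. They were picked by gene symbol, with their gene body values in these same samples already known. They are 4 of the 12438 gene symbols in the deposited tables and account for 7 of 22442 entries, because SNORD116-2 is entered 4 times. A375 is an established human malignant melanoma line. The cells were kept for 48 h with 25 µM A771726, 25 µM leflunomide or the solvent DMSO, in 2 replicates per group, so 6 libraries in 3 groups were made. A771726, also called teriflunomide, is the active metabolite that forms when the isoxazole ring of leflunomide opens. A771726 inhibits dihydroorotate dehydrogenase, an enzyme of pyrimidine synthesis. The assay was GRO-seq, a run-on assay in nuclei that reads out transcripts still being made by engaged RNA polymerases. The labels do not say whether the replicates were separate cultures.

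Box C/D small nucleolar RNAs carry 2 short conserved boxes, C near the 5′ end and D near the 3′ end, and most of them guide methylation of ribosomal RNA. The SNORD116 copies are orphans with no established ribosomal RNA target. They sit in tandem in introns of one long host transcript, SNHG14, which starts at the SNRPN promoter on chromosome 15 and is made from the paternal allele. Each copy is cut out of a spliced intron, so a copy has no promoter of its own in the usual sense. Loss of the paternal cluster is linked to Prader-Willi syndrome, and the family is best known from neurons.

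The 4 mature sequences are shown because they bear on how far reads from the copies themselves can be told apart. The host sequence around the copies was not compared. They were read from the GENCODE release 29 transcripts (GRCh38, chromosome 15, plus strand), with capitals for box C (TGATGA, the last match in the first 20 bases) and box D (CTGA, the last match).
SNORD116-2: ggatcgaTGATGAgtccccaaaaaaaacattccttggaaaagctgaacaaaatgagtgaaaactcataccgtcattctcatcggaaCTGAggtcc
SNORD116-10: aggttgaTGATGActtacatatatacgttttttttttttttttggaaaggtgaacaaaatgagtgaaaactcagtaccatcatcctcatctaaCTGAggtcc
SNORD116-20: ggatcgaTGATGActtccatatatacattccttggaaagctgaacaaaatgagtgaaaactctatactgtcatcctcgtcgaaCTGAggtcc
SNORD116-21: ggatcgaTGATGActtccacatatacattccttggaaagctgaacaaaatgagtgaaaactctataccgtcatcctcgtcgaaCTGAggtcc

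SNORD116-20 and SNORD116-21 were identical at 90 of 92 aligned bases (97.8%). SNORD116-2 differed more, with 86.5% and 87.5% identity to them, and SNORD116-10, which carries a long run of T, matched each of them at 76.5% and SNORD116-2 at 70.5%. Over all 30 annotated copies, SNORD116-2 was closest to SNORD116-6 (99.0%), while SNORD116-20 and SNORD116-21 were each closest to SNORD116-17 and SNORD116-19 (98.9%). SNORD116-10 stood apart from every other copy, its best match being 77.5%. The box C letters were found in 28 of the 30 copies and the box D letters in all 30. The tables hold 16 of the 30 copies; the other 14 were not analysed here.

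Some identical or near-identical copies also share values in the tables. SNORD116-20 and SNORD116-21 do not share values with each other or with SNORD116-17 and SNORD116-19. SNORD116-3 and SNORD116-9, whose sequences are identical, carry the same densities and ratios, and so do SNORD116-17 and SNORD116-19, which are identical too. The SNORD116-2 accession (NR_003317) has 2 different sets of values, each entered more than once, and the second set equals that of SNORD116-6. The 16 symbols therefore stand for 14 distinct sets of values. The set of SNORD116-2 with the higher mean gene body density is used below unless the other is named. The sources used here do not say how reads that align to several copies were placed.

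The deposited values are read densities in a promoter window and a gene body window, averaged by the authors over the replicates of a group, and the traveling ratio, which is promoter density over gene body density. The sources used here give neither the unit of the densities nor the limits of the windows, but both leave a trace in the values. Densities of short genes fall on whole multiples of 1 read when the promoter window is 600 bases and the gene body window is 2700 bases longer than the gene. With these widths every distinct SNORD116 entry, 17 by accession and values, had exactly 1 solution in whole reads for both libraries of each group. With a gene body window 200 bases shorter, 0 of the 17 had one. The library in which 1 read is worth less is called library 1 of its group. The columns carry no replicate letters, so libraries 1 and 2 cannot be tied to replicate a or b of the labels, and equal library numbers in different groups have nothing in common.

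These widths set what a gene body value of a SNORD116 copy can mean. SNORD116-20 and SNORD116-21 are 94 bases long in RefSeq, and their gene body window spans 2794 bases, so at most 3.36% of it can be the copy itself. The share is 3.47% for SNORD116-2 and 3.71% for SNORD116-10. The rest of the window lies in the host region around the copy. In the RefSeq order of the GRCh38.p14 assembly, SNORD116-20 and SNORD116-21 are direct neighbours and start closer together than the window is long, so windows placed alike at both would overlap and count some reads for both. SNORD116-2 and SNORD116-10 have no other of the 4 copies that near, but they too have near copies. These are SNORD116-1 and SNORD116-3 for SNORD116-2, and SNORD116-9 and SNORD116-11 for SNORD116-10. SNORD116-19 and SNORD116-22 lie that near to both SNORD116-20 and SNORD116-21. Reads may thus be shared with copies outside the 4 as well. The authors used hg18, and the spacing was not checked there.

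Few reads stood behind each copy. A gene body read at SNORD116-20 or SNORD116-21 was worth a density of 0.00517 and 0.00672 in the A771726 libraries, 0.00745 and 0.00807 in the leflunomide libraries, and 0.00940 and 0.0112 in the DMSO libraries. Over the 4 copies a library held 0 to 19 gene body reads and 0 to 7 promoter reads. All 4 copies passed the filters on low values, a mean over groups at or above the 30th percentile of all genes. Their mean gene body densities, from 0.0282 at SNORD116-10 to 0.0462 at SNORD116-20, exceeded those of 66.2% to 80.6% of genes. In a window of 2794 bases that rank still amounts to a handful of reads.

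**Figure D1:**
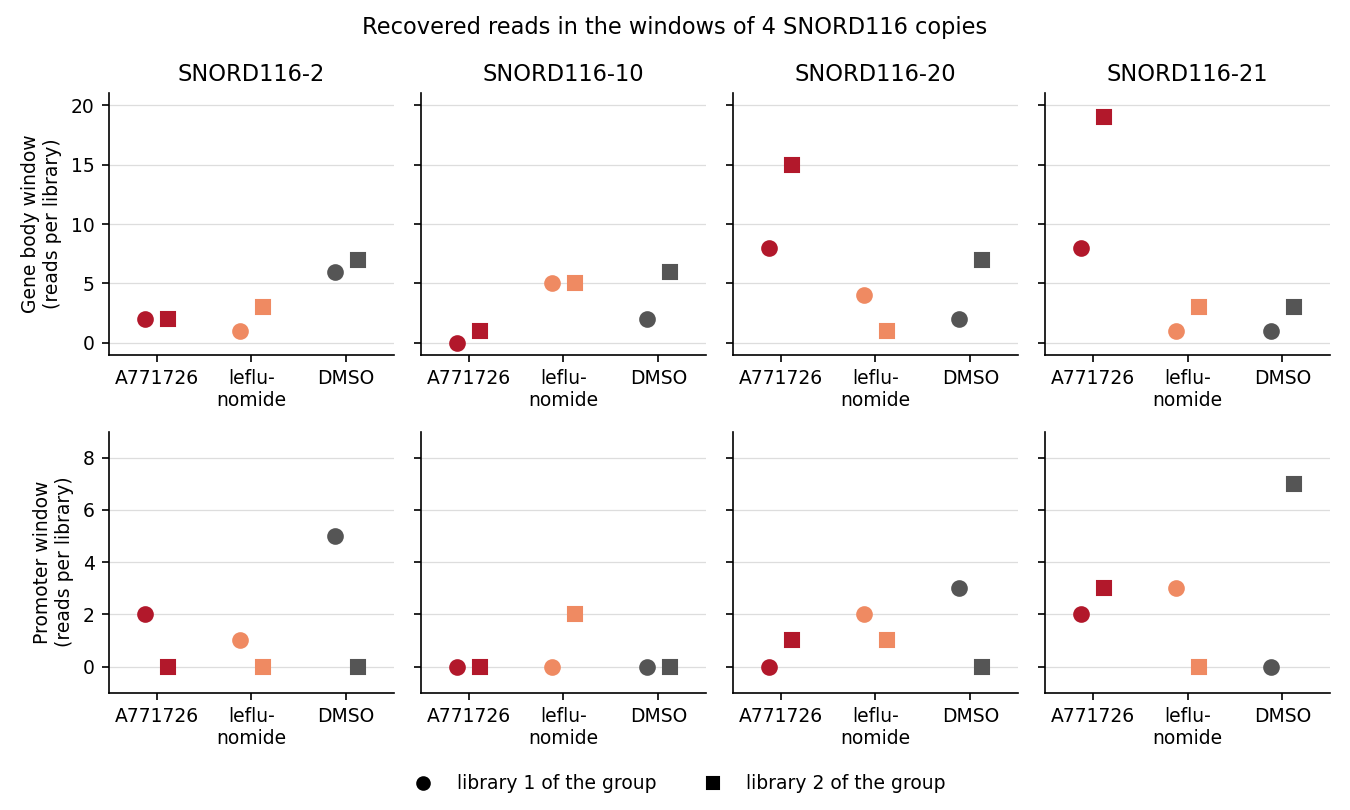
Recovered reads per library (vertical axes) in the gene body window (top) and the promoter window (bottom) of SNORD116-2, SNORD116-10, SNORD116-20 and SNORD116-21, by group; circles are library 1 and squares library 2. SNORD116-20 and SNORD116-21 hold 8 to 19 gene body reads in the A771726 libraries and at most 7 in any other library, and promoter windows hold 0 to 7 reads throughout.

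SNORD116-21 had the highest gene body values of the family, and it had them with A771726. Its gene body densities were 0.0413 and 0.128 in the A771726 libraries, 0.0074 and 0.0242 in the leflunomide libraries, and 0.0094 and 0.0335 in the DMSO libraries. The reads were 8 and 19 with A771726, 1 and 3 with leflunomide, and 1 and 3 in DMSO. Both A771726 libraries lay above all 4 others, which overlapped with each other. The deposited means were 0.0845 with A771726, 0.0158 with leflunomide and 0.0215 in DMSO. In bulk samples of this kind, fewer transcribing cells and less nascent RNA per cell cannot be told apart.

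On the log2 scale with a pseudocount of 0.0022, SNORD116-21 differed by 1.87 between A771726 and DMSO, and 2 of 8706 genes had a higher positive change. The median gene differed by −0.52 in that comparison, so relative to it SNORD116-21 lay at 2.39. The pooled reads, 27 against 4, give a density ratio of 3.86 (95% exact binomial interval 1.35 to 15.2, counting error only). Leaving out A771726 library 2 gives a log2 change of 0.88, under 2-fold, and leaving out DMSO library 1 or DMSO library 2 gives 1.28 or 2.90. Between leflunomide and DMSO the log2 change was −0.39, with a ratio of 0.759 from 4 reads each (0.141 to 4.08). Its sign turned without leflunomide library 1 (0.16) or without DMSO library 2 (0.63), and it reached −1.30 without leflunomide library 2.

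SNORD116-20, the direct neighbour, shared the high A771726 values, and its DMSO mean was higher, at 0.04845 against 0.02145 at SNORD116-21. That DMSO difference rests on 9 against 4 reads, with overlapping intervals of 4.12 to 17.1 and 1.09 to 10.2 reads. Its gene body densities were 0.0413 and 0.101 with A771726, 0.0298 and 0.0081 with leflunomide, and 0.0188 and 0.0782 in DMSO. The reads were 8 and 15 with A771726, 4 and 1 with leflunomide, and 2 and 7 in DMSO. The A771726 libraries lay above the leflunomide libraries, while DMSO library 2 lay between the A771726 libraries. The windows of SNORD116-20 and SNORD116-21 may overlap, so some A771726 reads may be counted at both copies, and how many was not measured.

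Between A771726 and DMSO the gene body log2 change of SNORD116-20 was 0.53, or 1.05 relative to the median gene, with a ratio of 1.46 from 23 against 9 reads (0.652 to 3.59). It turned to −0.22 without A771726 library 2 and to −0.13 without DMSO library 1, and it was 1.80 without DMSO library 2. Between leflunomide and DMSO the change was −1.26, with a ratio of 0.422 from 5 against 9 reads (0.111 to 1.40). That difference rests on DMSO library 2, without which it is 0.01, and it was −2.30 without leflunomide library 1 and −0.66 without leflunomide library 2.

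SNORD116-10, the copy with the most divergent sequence, had almost no gene body reads with A771726. Its gene body densities were 0 and 0.0067 with A771726, 0.0371 and 0.0402 with leflunomide, and 0.0187 and 0.0667 in DMSO. The reads were 0 and 1 with A771726, 5 and 5 with leflunomide, and 2 and 6 in DMSO. Both A771726 libraries lay below all 4 others, and the leflunomide libraries lay between those of DMSO.

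The ratio of SNORD116-10 between A771726 and DMSO, from 1 against 8 reads, was 0.0716 (0.00161 to 0.534). On the log2 scale with the pseudocount the change was −3.02, or −2.50 relative to the median gene, and 31 of 8706 genes had a lower value. Its size depends on single reads: it was −1.91 without DMSO library 2, −2.33 without A771726 library 1, −3.63 without DMSO library 1 and −4.35 without A771726 library 2, which leaves 0 reads. Between leflunomide and DMSO the change was −0.14 (ratio 0.949, 0.337 to 2.77, from 10 against 8 reads), but it came to 0.97 when DMSO library 2 was dropped and to −0.75 when DMSO library 1 was dropped.

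SNORD116-2 had fewer gene body reads with either compound than in DMSO. Its gene body densities were 0.0103 and 0.0134 with A771726, 0.0074 and 0.0242 with leflunomide, and 0.0563 and 0.0781 in DMSO. The reads were 2 and 2 with A771726, 1 and 3 with leflunomide, and 6 and 7 in DMSO. Both DMSO libraries lay above all 4 libraries of the compounds. Of the 4 copies it was the one whose leflunomide and DMSO libraries did not overlap.

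The gene body log2 change of SNORD116-2 between A771726 and DMSO was −2.30, or −1.79 relative to the median gene, with a ratio of 0.176 from 4 against 13 reads (0.0418 to 0.570). Between leflunomide and DMSO it was −1.95, or −1.89 relative to the median gene, with a ratio of 0.234 from 4 against 13 reads (0.0555 to 0.756). The change with leflunomide ranged to −1.39 without leflunomide library 1 and to −2.85 without leflunomide library 2. The 2 comparisons share their DMSO libraries. The second set of values of SNORD116-2, shared with SNORD116-6, held 1 and 3 reads with A771726, 3 and 2 with leflunomide, and 8 and 1 in DMSO. In that set the groups overlapped, and the log2 change was −1.61 with A771726 and −1.08 for SNORD116-6 with leflunomide.

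Counted at 2-fold or more in gene body density, 1 of the 4 copies was higher with A771726 than in DMSO, as were 0.839% of the 8706 genes past the filter, and 2 copies were lower, as were 18.5% of genes. Relative to the median gene, 2 copies were higher (3.6% of genes) and 2 lower (5.73%). With leflunomide 0 copies were higher (1.84% of genes) and 2 lower (4.49%). The copies were chosen on these contrasts, so the counts describe them and carry no test. Rows were also selected on DMSO values, as given below with the traveling ratios. Among 221 genes under 1300 bases whose reads were recovered in all libraries, both A771726 libraries lay above both DMSO libraries in 4.52% and below them in 45.2%. Both leflunomide libraries lay above those of DMSO in 6.79% and below them in 30.8%.

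**Figure D2:**
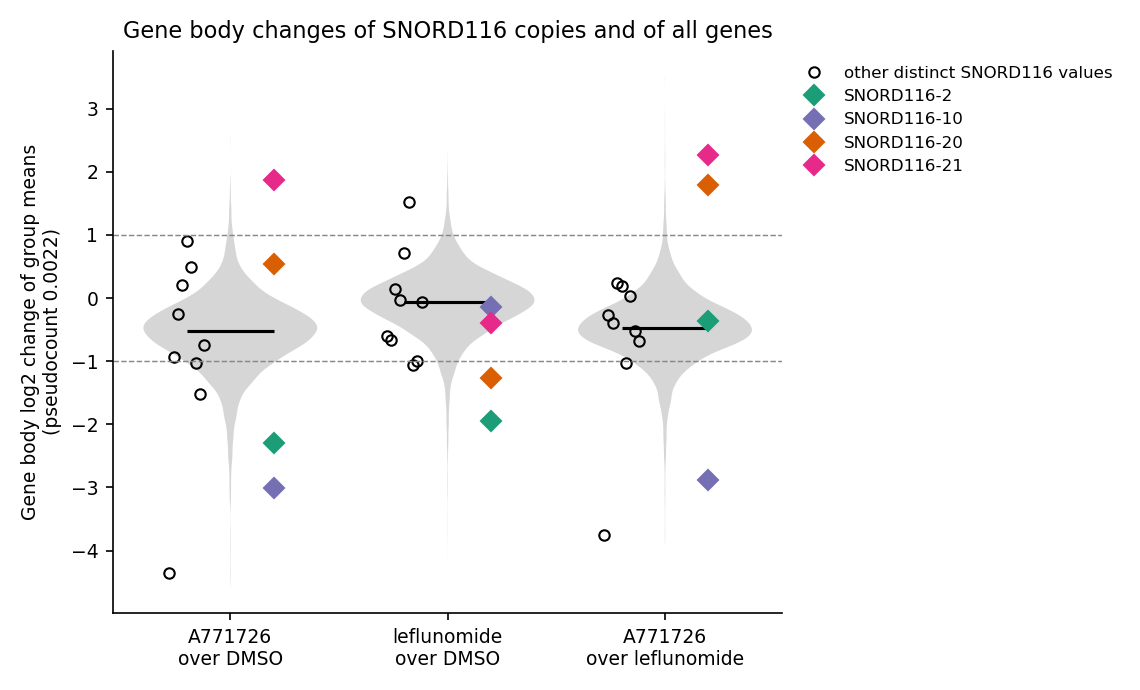
Gene body log2 change of group means (vertical axis, pseudocount 0.0022) for 3 comparisons; grey shapes show the 8706 genes past the filter with the median as a black line, open circles the 9 distinct sets of values of other SNORD116 copies, diamonds the 4 named copies, and dashed lines 2-fold. Among the 4 diamonds, SNORD116-21 (1.87) is highest and SNORD116-10 (−3.02) lowest with A771726 over DMSO, and SNORD116-21 (2.27) and SNORD116-20 (1.79) lie high with A771726 over leflunomide.

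The ring-opened metabolite and its parent were set against each other at the same dose and time for these 4 copies, which makes 4 gene body differences, and copies picked for such differences get no test. The gene body log2 difference of A771726 over leflunomide was 2.27 at SNORD116-21 and 1.79 at SNORD116-20, or 2.74 and 2.27 relative to the median gene, which lay at −0.47. The read ratios were 5.09 (1.77 to 20.01) at SNORD116-21 and 3.47 (1.29 to 11.7) at SNORD116-20. Leaving out single libraries gave 1.27 (without A771726 library 2) to 3.17 (without leflunomide library 2) at SNORD116-21, and 1.04 (without A771726 library 2) to 2.83 (without leflunomide library 1) at SNORD116-20. At SNORD116-10 the difference was −2.88, or −2.41 relative to the median gene, with a ratio of 0.0754 (0.00174 to 0.530) from 1 against 10 reads. It ranged from −4.21 without A771726 library 2 to −2.20 without A771726 library 1.

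At SNORD116-2 the compounds gave 4 reads each, with a ratio of 0.754 and an interval from 0.140 to 4.05, so a difference of several fold in either direction was not detectable at this depth. Its log2 difference was −0.36 as deposited, 0.12 relative to the median gene and 0.55 without leflunomide library 2. At 2-fold or more, 2 of the 4 copies were higher with A771726 than with leflunomide, as were 1.03% of genes, and 1 copy was lower, as were 12.4% of genes. Relative to the median gene the same counts stand beside 3.38% and 3.77% of genes. In the 221 short genes both A771726 libraries lay above both leflunomide libraries in 6.79% and below them in 24.9%.

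The promoter window of 600 bases is long enough to hold the whole copy, and it too rested on few reads. SNORD116-21 had 2 and 3 promoter reads with A771726, 3 and 0 with leflunomide, and 0 and 7 in DMSO. SNORD116-2 had 2 and 0 with A771726, 1 and 0 with leflunomide, and 5 and 0 in DMSO. SNORD116-20 had 0 and 1 with A771726, 2 and 1 with leflunomide, and 3 and 0 in DMSO. The groups overlapped at each of these 3 copies, and each DMSO value came from 1 library alone. SNORD116-10 had 0 promoter reads in both A771726 libraries, 0 and 2 with leflunomide, and 0 in both DMSO libraries. A count of 0 allows up to 3 reads.

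On the log2 scale with a pseudocount of 0.01735, the promoter change between A771726 and DMSO was −1.61 at SNORD116-2, −1.33 at SNORD116-20 and −1.17 at SNORD116-21. Thus 3 of the 4 copies were lower by 2-fold or more, as were 26% of 8837 genes, and 0 were higher, as were 20.8%. Without the DMSO library that held the reads the signs turned, to 1.25, 0.93 and 2.35. With leflunomide the promoter change was −1.87 at SNORD116-2 and −1.52 at SNORD116-21, −0.23 at SNORD116-20 and 1.66 at SNORD116-10. So 2 copies were lower and 1 higher by 2-fold or more, against 16% and 30.6% of genes. These too turned, to 1.00 at SNORD116-2 and 2.00 at SNORD116-21, without the same DMSO library. The median gene lay at 0.22 with leflunomide, and relative to it the same 2 copies were lower (−2.09 and −1.74) and the same 1 higher (1.45), beside 19.7% and 22% of genes. At SNORD116-20 the leflunomide change was 2.03 without DMSO library 1, and at SNORD116-10 it was 0.00 without leflunomide library 2. Of A771726 over leflunomide, the promoter difference was −1.66 at SNORD116-10, −1.10 at SNORD116-20, 0.25 at SNORD116-2 and 0.35 at SNORD116-21. That puts 2 copies lower and 0 higher by 2-fold or more, beside 30.6% and 13.5% of genes. Leaving out single libraries gave −2.42 to 0.00 at SNORD116-10 (0.00 without leflunomide library 2) and −2.03 to −0.54 at SNORD116-20 (−0.54 without A771726 library 1, −0.74 without leflunomide library 1). It gave −1.0 to 1.25 at SNORD116-2 and −0.46 to 2.35 at SNORD116-21, so neither kept its sign. Relative to the median gene, at −0.30, only SNORD116-10 (−1.37) was lower to that extent, beside 21% of genes lower and 19.3% higher.

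Traveling ratios, as given in the authors' deposited table, follow from these few reads. In the authors' deposited table the ratio of SNORD116-20 was 0.155 with A771726, 3.49 with leflunomide and 3.49 in DMSO, a fold of 0.0445 for A771726 and 0.998 for leflunomide over DMSO. The A771726 ratio of SNORD116-20 rests on 1 promoter read, in library 2, and on 0 in library 1. For SNORD116-21 the authors' deposited table gives 0.950 with A771726, 7.03 with leflunomide and 5.43 in DMSO, a fold of 0.175 for A771726 and 1.30 for leflunomide. For SNORD116-2 the authors' deposited table gives 2.33, 2.34 and 1.94 in the same order, folds of 1.20 and 1.21. The second set of SNORD116-2 has ratios of 0 with A771726, 2.72 with leflunomide and 0 in DMSO in the authors' deposited table, so its fold over DMSO has no finite value. SNORD116-10 had no defined ratio with A771726, since 1 library held no read in either window, and 0.935 with leflunomide and 0 in DMSO in the authors' deposited table. Across 5173 genes with a finite ratio above 0 in every group, 17.1% were lower by 2-fold or more with A771726 than in DMSO and 34.6% higher, and with leflunomide 15.3% were lower and 27.9% higher. With A771726 over leflunomide 20.9% were lower and 26.9% higher. All deposited entries have a DMSO ratio of at most 7.5, so rows were selected on DMSO values. A finite ratio needs gene body reads in both DMSO libraries, so a gene body value of 0 could be listed with the compounds but not in DMSO. How much this adds to the shares of genes lower with the compounds was not tested.

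**Figure D3:**
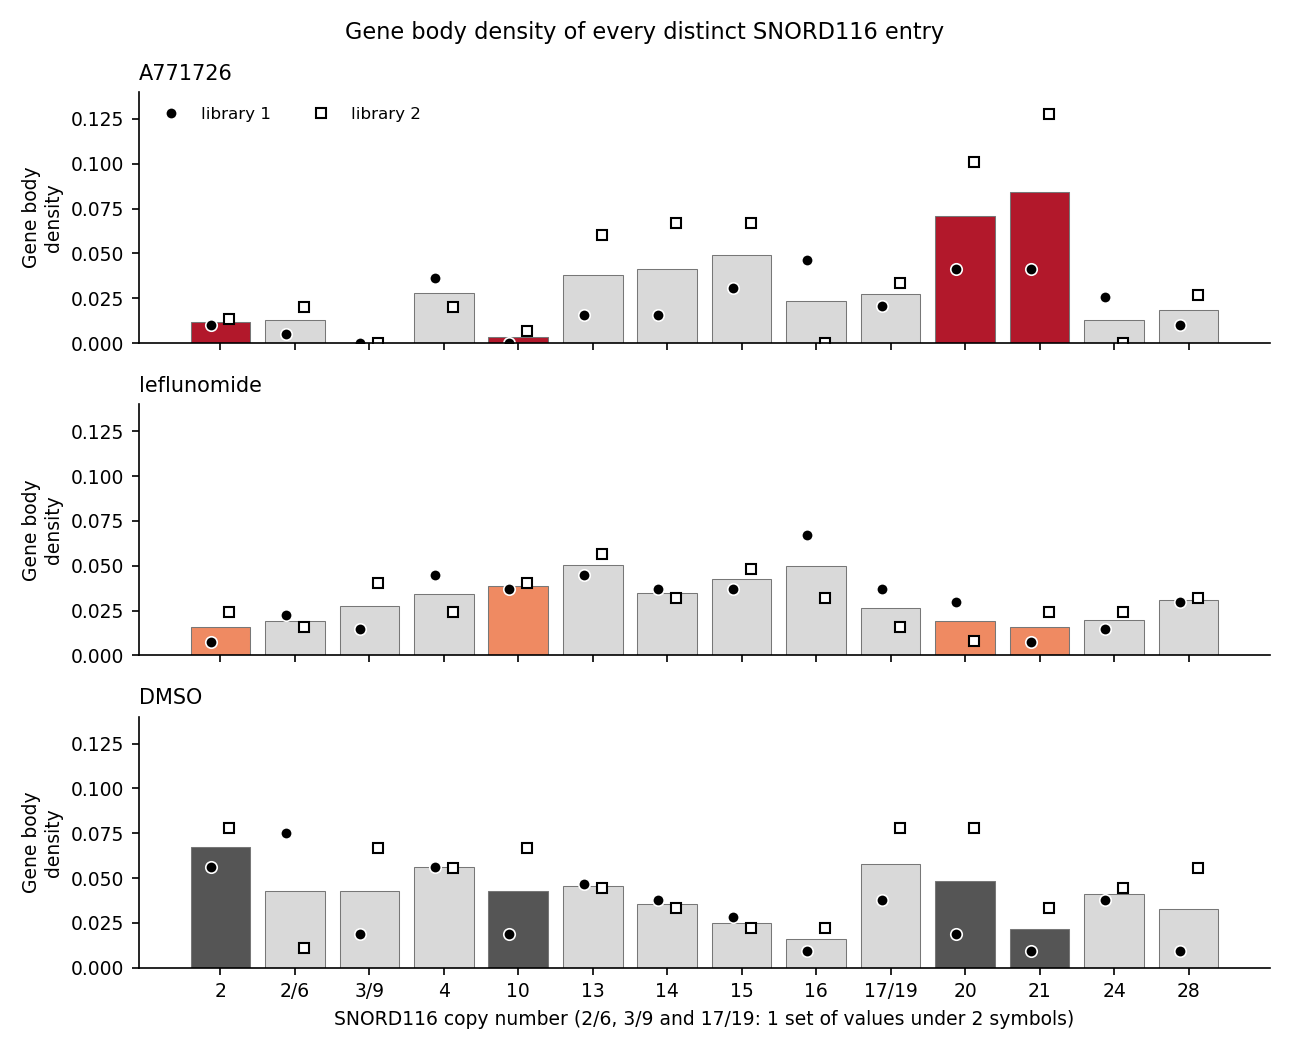
Mean gene body density (bars, vertical axis, in the deposited density unit) of the 14 distinct sets of SNORD116 values, ordered by copy number, in A771726 (top), leflunomide (middle) and DMSO (bottom); filled circles are library 1, open squares library 2, and coloured or dark bars mark SNORD116-2, SNORD116-10, SNORD116-20 and SNORD116-21, with the second set of SNORD116-2, shared with SNORD116-6, in light grey. With A771726 the bars run from 0 at SNORD116-3 and SNORD116-9 to 0.0845 at SNORD116-21, and in DMSO from 0.0159 to 0.0672. Rows were selected on DMSO ratios, so the low ends of these ranges cannot be compared.

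The other copies place these 4 in their cluster. The 9 remaining distinct sets of values held 39 and 41 gene body reads in the A771726 libraries, 44 and 38 with leflunomide, and 30 and 38 in DMSO, with reads in overlapping windows possibly counted more than once. Their median density was 0.0272 with A771726, 0.0344 with leflunomide and 0.0412 in DMSO. Their mean densities per library were 0.0224 and 0.0306 with A771726, 0.0364 and 0.0341 with leflunomide, and 0.0313 and 0.0471 in DMSO. The A771726 libraries lay below those of DMSO in this mean, and the leflunomide libraries lay between those of DMSO.

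Between A771726 and DMSO the 9 sets had a median log2 change of −0.74, beside −0.52 over all genes. At 2-fold or more, 0 of them were higher and 3 lower, beside 0.839% and 18.5% of all genes. SNORD116-3 and SNORD116-9 were listed at 0 with A771726 (0 reads, against 2 and 6 in DMSO), while SNORD116-15 had the highest change, 0.90. The windows of SNORD116-3 and SNORD116-2, and those of SNORD116-9 and SNORD116-10, may overlap. Low values with A771726 at these copies may therefore not be separate observations. Both A771726 libraries lay below both DMSO libraries in 4 of the 9 sets and above them in 1. Among the 221 short genes the shares were 45.2% and 4.52%, so the 4 sets do not stand out. With leflunomide the median was −0.07, beside −0.06 over all genes. By 2-fold or more, 1 set was higher (SNORD116-16, 1.52) and 1 lower (SNORD116-17 with SNORD116-19, −1.06), beside 1.84% and 4.49% of all genes. Both leflunomide libraries lay below both DMSO libraries in 3 sets and above them in 2, beside 30.8% and 6.79% of the 221 short genes.

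Of the copies analysed, those nearest in number to SNORD116-20 and SNORD116-21 had lower densities with A771726. SNORD116-18, SNORD116-22 and SNORD116-23 were not analysed. SNORD116-17 and SNORD116-19, the closest in sequence, had a mean gene body density of 0.0272 with A771726, 0.0267 with leflunomide and 0.0579 in DMSO. These are 1 set of values under 2 symbols, so they cannot be tied to SNORD116-19 alone. SNORD116-24 had 0.0129 with A771726 (5 and 0 reads), 0.0196 with leflunomide and 0.0412 in DMSO. The value of 0.0491 at SNORD116-15 was the highest with A771726 outside SNORD116-20 and SNORD116-21.

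Other box C/D genes give a wider frame. Of all genes, 0.839% were higher and 18.5% lower by 2-fold or more with A771726 than in DMSO. With leflunomide the shares were 1.84% and 4.49%. Of 107 SNORD genes outside the family, 0 were higher and 42 lower by 2-fold or more with A771726 than in DMSO, with a median gene body log2 change of −0.80. Their extremes were SNORD127 (0.87) and SNORD121A (−2.19). With leflunomide 0 of them were higher and 5 lower (4.67%, near the share of all genes) by that measure. The median was −0.33, with extremes at SNORD88C (0.93) and SNORD94 (−1.60). Of 77 H/ACA genes (SNORA), the class that guides pseudouridylation, 0 were higher and 36 lower by 2-fold or more with A771726, with a median of −0.98 and extremes at SNORA9 (0.35) and SNORA59A (−3.96). With leflunomide 1 was higher (SNORA70G, 1.07) and 10 lower, with SNORA59A lowest (−1.76). Set against leflunomide, A771726 left 0 of the 107 SNORD genes higher and 16 lower by 2-fold or more, beside 1.03% and 12.4% of all genes. SNORD116-21 lay above all of these SNORD and SNORA genes with A771726 over DMSO, a place it was in part chosen for.

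SNRPN and SNURF mark the start of the host transcript. SNRPN, which encodes the spliceosomal protein SmN, had mean gene body densities of 0.0187 with A771726, 0.0209 with leflunomide and 0.0156 in DMSO (log2 changes 0.24 and 0.38 against DMSO). SNURF, the upstream reading frame of the same transcript, had 0.0223, 0.0172 and 0.0172 in the same order. Both symbols share a promoter value, 0.132 with A771726, 0.127 with leflunomide and 0.114 in DMSO. The promoter log2 changes against DMSO were 0.19 with A771726 and 0.14 with leflunomide. No reads or spread between libraries stand beside these means, so they cannot show that the 3 groups were alike.

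Differences between groups were wider at other non-coding transcripts of the region. PAR5, between SNRPN and the SNORD116 copies, had a gene body density of 0.00975 with A771726, 0.0232 with leflunomide and 0.00470 in DMSO. Its promoter density was 0.342, 0.189 and 0.0219 in the same order. A DMSO promoter mean of 0.0219 is what 1 read in DMSO library 1 and 0 in library 2 give, so these promoter differences rest on 1 DMSO read. IPW, beyond the SNORD116 copies, had a gene body density of 0.00085 with A771726, 0.0187 with leflunomide and 0.00665 in DMSO. IPW was lowest with A771726, by log2 changes of −1.54 against DMSO and −2.78 against leflunomide. Its values with A771726 and in DMSO lay below the filter's minimum mean of 0.00872, so it passed only through its leflunomide value. Its reads are not given here, so its likeness to any SNORD116 copy was not tested. PWRN1 was near the floor in all groups (0.00190, 0.00130 and 0.00215).

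UBE3A, a ubiquitin ligase gene that neurons express from the maternal allele, had a gene body density of 0.0109 with A771726, 0.0214 with leflunomide and 0.0197 in DMSO, a log2 change of −0.75 with A771726. MKRN3, a paternally expressed makorin gene, had 0.00745, 0.0213 and 0.0126 in the same order. The flanking genes NIPA2, CYFIP1 and HERC2 had log2 changes of −0.40, −0.48 and −0.29 with A771726 over DMSO and −0.07, −0.10 and 0.14 with leflunomide over DMSO. ATP10A, GABRG3 and OCA2, with PWRN1, lay below the filter, with densities of at most 0.00455 in any group. Of the 9 region genes past the filter, 0 were higher and 1 (IPW) lower by 2-fold or more with A771726 than in DMSO. The shares of all genes were 0.839% and 18.5%. With leflunomide 2 (PAR5 and IPW) were higher and 0 lower, beside 1.84% and 4.49% of all genes. The medians were −0.40 and 0.14. IPW is among the 9 only through its leflunomide value. PAR5 (0.00975 with A771726 and 0.00470 in DMSO) would also average below the filter's minimum without its leflunomide value. The 2 genes counted as higher with leflunomide thus entered the count through the value that is high. Of 9 other imprinted genes past the filter, 0 were higher and 1 lower by 2-fold or more with A771726 (NAA60, −1.14). With leflunomide 1 was higher (PHLDA2, 1.52), and the medians were −0.46 and 0.00. The same shares of all genes stand beside these counts.

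The genes with gene body changes most like those of each copy were found by the distance over the 2 log2 changes against DMSO, among genes past the filter. Nearest to SNORD116-2 were PLD6 (distance 0.00750), MIR331 (0.0273) and ARMCX6 (0.176). Nearest to SNORD116-10 were GFER (0.0901), MIR548K (0.146) and HSFX1 (0.159). Nearest to SNORD116-20 were GHDC (0.128), IFITM3 (0.280) and IGFALS (0.310). Nearest to SNORD116-21 were LGALS8-AS1 (0.499), ZNF275 (0.597) and TAT (0.623). The 3 groups are the only points behind each distance, and none of these 12 genes was another SNORD116 copy. MIR331 and ARMCX6 lay below the filter's minimum mean of 0.00872 with both compounds, so they passed only through their DMSO values. ZNF275 lay below it with leflunomide (0.0045) and in DMSO (0.00525) and passed only through its A771726 value. Their likeness to the copies was not tested.

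The cells matched their label in part. Of 10 melanoma and melanocyte marker symbols 5 were in the tables, led by the transcription factor SOX10. Its gene body density was 0.273 with A771726, 0.330 with leflunomide and 0.329 in DMSO, higher than in 98.4% of genes in DMSO. AXL had 0.0544, 0.0675 and 0.0544 in the same order, higher than in 81.1% of genes in DMSO. MITF had 0.01555, 0.02255 and 0.0123, higher than in 36.3% of genes in DMSO. The 5 summed to 0.364 with A771726, 0.447 with leflunomide and 0.421 in DMSO, and SOX10 made up most of each sum. The melanosome genes MLANA (0.0046, 0.00485 and 0.0152 in the same order) and PMEL (0.0172, 0.0224 and 0.0104) were low. The 4 neuronal and glial markers summed to 0.0101 with A771726, 0.0112 with leflunomide and 0.0123 in DMSO, and 1 of them, STMN2, was listed at 0 with A771726.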

How the data were processed

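GRO-seq libraries of A375 cells were made from nascent RNA with small RNA adapters and gel-selected, per the labels' protocols. Bowtie 0.12.9, bedtools and the build hg18 were used, per the submitters' processing notes. Per the file headers, the deposited density signal for promoter and gene body and the traveling ratio are the authors' averages over the 2 replicates of each group. A771762 in the headers was taken to mean A771726. The sources used here do not give library depth, scaling, strand handling or the placing of reads with several matches.

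For each gene symbol the entry with the highest mean gene body density was kept. Genes whose mean over groups reached the 30th percentile were compared, 8706 for gene bodies and 8837 for promoters. Changes are log2 ratios of group means after adding the median over groups of the 10th percentile of values above 0 (0.0022 and 0.01735), which understates changes of low genes. No p-value was computed.

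Reads per library were recovered by a method chosen after seeing the data. The 2 commonest promoter sums of a group, leaving out multiples, gave the first guess of what 1 read is worth in each library, which was then refined. The density of 1 promoter read was 0.0241 and 0.0313 with A771726, 0.0347 and 0.0376 with leflunomide, and 0.0438 and 0.0520 in DMSO, which put 75.0%, 72.2% and 73.5% of promoter sums on whole reads (to 4 decimals per library). Window widths were those that brought 663 gene body values nearest to whole reads (mean distance 0.0263). Lengths came from RefSeq (GRCh38.p14), which may differ from hg18. The steps were tested on simulated data. Intervals are at the 95% level and use the summed reads of both libraries. They cover counting error only and leave out the spread between libraries. Reads carry no molecular identifiers, so even the counting error may be understated.

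The copies, lists and alternatives were chosen with earlier results of these data known. Named genes are the 4 copies, the Prader-Willi region genes in the tables except 1 that is not reported here, the 3 genes most like each copy and the extremes of the other lists. SNORD116 copies, AXL, MITF, MLANA, PMEL, SOX10 and STMN2 named beyond that were chosen after their values were seen. Alternatives were another pseudocount, centring, other filters, pooled reads and leaving out each library. Python 3.11.15, SciPy 1.17.1 and Biopython 1.88 were used.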

Additional observations from a re-analysis of the deposited data

How the results depend on the processing

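No paired analysis was possible because the columns hold group means without replicate letters. The gene body change of SNORD116-2 with A771726 over DMSO (−2.30) moved by more than the spread between libraries to −1.77 with a pseudocount 5 times larger, −1.79 after centring on the median gene and −1.61 in its other distinct entry (added after seeing the data), each still beyond 2-fold. Leaving out each library gave −2.30 to 0.01 (0.0103 without DMSO library 2) for SNORD116-20 with leflunomide over DMSO, so its direction rests on DMSO library 2. For promoters it gave −2.87 to 1.25 at SNORD116-2, −2.26 to 0.93 at SNORD116-20 and −2.11 to 2.35 at SNORD116-21 with A771726 over DMSO. With leflunomide over DMSO it gave −2.87 to 1.00 at SNORD116-2 and −3.52 to 2.00 at SNORD116-21. In each of these promoter cases 1 DMSO library held all the DMSO promoter reads. With 2 libraries per group, leaving one out can hardly move a mean by more than their spread, so these values say little about stability. Background shares stayed within 1.5 times under the other filters and entries. Signs of changes under 2-fold turned when single libraries were dropped at SNORD116-2, SNORD116-10, SNORD116-20 and SNORD116-21. Pooled reads turned no sign. Depth limits every value here.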

Other observations

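Repeated entries reach beyond the SNORD116 family: 1410 of the 22442 deposited entries repeat another entry in accession, symbol and values.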
